A study of Arabidopsis thaliana with 30 samples.

Results

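The genes that write, read and erase trimethylation of histone H3 lysine 27 (H3K27me3) in Arabidopsis thaliana were examined for occupancy by the SWI/SNF chromatin remodeler and for histone H4 acetylation. The set held 10 genes of 27444 nuclear protein-coding genes and was chosen by name for their function: CLF, SWN, FIE, EMF2, VRN2, MSI1, LHP1, REF6, ELF6 and JMJ13. For each gene, the ChIP-seq peaks on the transcribed gene or within 1 kb before it (the gene window) were described in 20 peak lists from 14-day-old seedlings. The lists came from 10 groups of 2 replicates, and 10 input samples of the series were not used here. The groups were BRM-GFP in the brd1/2/13 triple mutant, BRM-GFP, BRD1-GFP, BRD13-GFP, BRD2-dBromo-GFP, BRD2-GFP, H4K5ac in brd1/2/13, H4K5ac in WT, H4K8ac in brd1/2/13 and H4K8ac in WT. BRM is a catalytic ATPase of SWI/SNF complexes, and BRD1, BRD2 and BRD13 are bromodomain proteins named by the series as core subunits of these complexes. The name BRD2-dBromo points to a BRD2 with an altered or missing bromodomain. The labels of the BRM-GFP samples name no genotype, while the design text of the series names brm-1 for BRM, brd1 for BRD1 and brd2 for BRD2 occupancy. The promoters of the GFP fusions, the genetic background of BRD13-GFP and BRD2-dBromo-GFP and the number of lines are not given in the sources used here. The antibody label of the acetylation samples names GFP, so their titles, which name the marks, were followed. Each pair of replicates carries the tags bio1 and bio2 in its titles, without further detail on cultures, so a p-value here covers the spread between these libraries alone, which could be partly technical.

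In plants, Polycomb repressive complex 2 (PRC2) places H3K27me3 on developmental genes and keeps them silent. Its catalytic subunits act with a WD40 core and with a zinc-finger subunit that differs between complexes, the mark is read by LHP1, and jumonji-domain demethylases remove it. SWI/SNF complexes oppose Polycomb silencing at many genes by moving nucleosomes, bromodomains bind acetylated lysines, and acetylation of histone H4 marks the starts of active genes.

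The values are the fold enrichment over the local background that the authors' peak caller gave at each summit. The best peak of a gene is the one with the highest fold. The rank of a gene in a list is the percent of genes with a peak in that list whose best fold is lower. The lists give no read totals, but the local background of each peak could be solved from fold and p-value. The background given here is the low end of these values, a low quantile over the peaks of a list. It was 37.0 and 36.4 reads for BRM-GFP in brd1/2/13, 10 and 18.6 reads for BRM-GFP, and 24.1 to 38.1 reads in the other 16 lists. A region at that background was called from a fold of 1.54 and 1.55 for BRM-GFP in brd1/2/13, from 1.82 and 1.58 for BRM-GFP, and from 1.38 to 1.54 in the others. BRM-GFP in brd1/2/13 had 6131 and 7051 peaks, all with a q of at most 0.01, against 15562 and 16971 for BRM-GFP, whose q reached 0.05 as in the other lists.

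Positions are those of TAIR10, with genes from the TAIR10.1 annotation, which keeps the nuclear coordinates. CLF (AT2G23380, chr2:9955092-9960386, + strand) and SWN (AT4G02020, chr4:886580-891987, + strand) encode the catalytic H3K27 methyltransferases. FIE (AT3G20740, chr3:7248809-7252452, - strand) and MSI1 (AT5G58230, chr5:23556012-23558245, + strand) encode the WD40 subunits. EMF2 (AT5G51230, chr5:20823644-20829644, + strand) and VRN2 (AT4G16845, chr4:9476069-9479878, + strand) encode alternative zinc-finger subunits, of which VRN2 is known for vernalization. LHP1 (AT5G17690, chr5:5827142-5829763, - strand) encodes the chromodomain reader. REF6 (AT3G48430, chr3:17935256-17940792, + strand), ELF6 (AT5G04240, chr5:1169153-1174992, + strand) and JMJ13 (AT5G46910, chr5:19046339-19051379, + strand) encode the demethylases. Several of these genes have a close neighbour, so a peak upstream need not belong to the named gene. CLF shares 58 bp with AT2G23370 on the opposite strand, MSI1 starts 11 bp from the start of the divergent gene TTL, and EMF2 starts 233 bp from that of AT5G51220. AT4G16840 lies on the same strand as VRN2, from -1184 to -370 bp relative to its start. The short gene AT5G04238 lies on the opposite strand within ELF6, from +64 to +258 bp.

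Sequence was read from the RefSeq copy of the genome for the stretches to which the BRM-GFP results point. The first stretch is the JMJ13 upstream site at chr5:19045554-19045757 (+ strand, -785 to -582 bp from the start, between genes), which holds the 7 upstream summits of the GFP lists. The others are the 150 bases before REF6 (chr3:17935106-17935255, + strand), where BRM-GFP peaks lie, and those before SWN (chr4:886430-886579, + strand) and FIE (chr3:7252453-7252602, - strand), where none was called. All are written 5′ to 3′ along the gene, and capitals mark GAGAGA or CACGTG on either strand, of which the FIE stretch has none.
JMJ13 upstream site: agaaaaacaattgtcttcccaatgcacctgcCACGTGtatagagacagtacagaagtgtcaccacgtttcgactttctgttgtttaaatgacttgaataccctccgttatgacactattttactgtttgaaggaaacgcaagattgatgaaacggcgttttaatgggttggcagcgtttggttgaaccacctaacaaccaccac
REF6 upstream: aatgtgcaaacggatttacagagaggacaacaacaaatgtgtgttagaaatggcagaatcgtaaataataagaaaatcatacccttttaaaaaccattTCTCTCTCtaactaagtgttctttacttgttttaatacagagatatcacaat
SWN upstream: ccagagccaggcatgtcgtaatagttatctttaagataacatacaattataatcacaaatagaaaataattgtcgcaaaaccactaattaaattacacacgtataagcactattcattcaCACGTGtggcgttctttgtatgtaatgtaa
FIE upstream: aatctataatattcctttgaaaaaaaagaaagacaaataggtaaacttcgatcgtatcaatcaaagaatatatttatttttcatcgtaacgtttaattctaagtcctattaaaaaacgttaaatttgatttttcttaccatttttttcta

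The first question was which of these genes carried each protein or mark. All 10 genes had an H4K5ac and an H4K8ac peak in every acetylation list. The background over all genes was 71.9% for H4K5ac in brd1/2/13, 70.4% for H4K5ac in WT, 65.5% for H4K8ac in brd1/2/13 and 65.5% for H4K8ac in WT. BRM-GFP in brd1/2/13 had a peak in both lists at 1 gene, JMJ13, against 20.3% of all genes. BRM-GFP had one in both lists at 8 of the 10 genes, against 54.6% of all genes, and SWN and FIE had none in either list. BRD1-GFP had a peak in both lists at 8 genes (all genes 65.3%), BRD13-GFP at 6 (55.2%), BRD2-dBromo-GFP at 9 (61.6%) and BRD2-GFP at 9 (62.4%). By rank, the set stood higher for acetylation than for the GFP fusions. Its median rank was 70.0 to 79.8% in the H4K5ac lists and 67.5 to 72.7% in the H4K8ac lists, against 48.0 and 44.4% in the BRM-GFP lists and 24.3 to 35.4% in the lists of the BRD fusions.

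**Figure D1:**
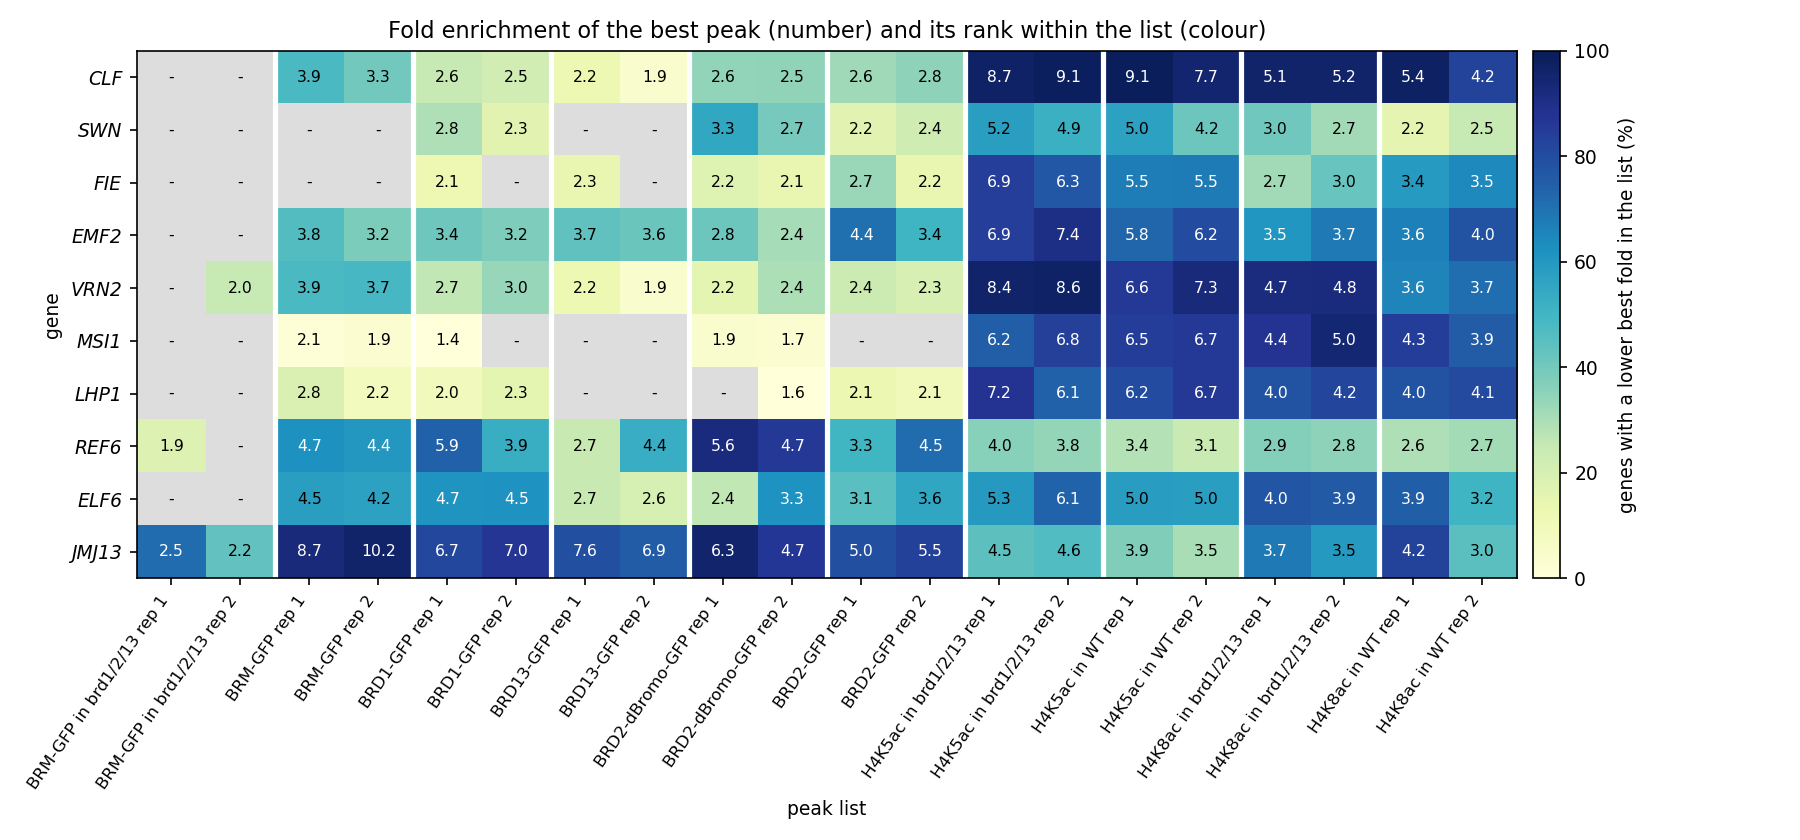
Fold enrichment of the best peak (number in each cell) of the 10 genes (rows) in the 20 peak lists (columns), coloured by rank, the percent of genes with a lower best fold in that list; grey cells with a dash had no peak. Both columns of BRM-GFP in brd1/2/13 are grey for 7 of the 10 genes, while JMJ13 is dark in those of BRM-GFP (8.72 and 10.2) and CLF in those of H4K5ac (7.70 to 9.06).

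The second question was whether BRM-GFP kept its peaks without BRD1, BRD2 and BRD13. Of the 8 genes with a BRM-GFP peak in both lists, JMJ13 had one in both lists of BRM-GFP in brd1/2/13, VRN2 and REF6 had one in 1 list, and CLF, EMF2, MSI1, LHP1 and ELF6 had none. Over the 14987 genes with a BRM-GFP peak in both lists, these shares were 37% in both, 15.8% in 1 list and 47.2% in none. Of the 10 genes, 2 and 2 had a peak in the libraries of BRM-GFP in brd1/2/13, against 8 and 8 in BRM-GFP, and the groups did not overlap. Nor did the shares of all genes with a peak, 23.3 and 26.3% in BRM-GFP in brd1/2/13, against 56.6 and 62.8% in BRM-GFP. The exact two-sided permutation test of the 10-gene counts over the 4 lists gave p = 0.33. This is the smallest p that 2 against 2 lists allow, so it cannot pass 0.05. The status of each gene was the same with a q of at most 0.01 in all 4 lists. With the peaks of a group merged into regions, ELF6 also counted as kept in 1 list. No list of BRM-GFP in brd1/2/13 had a peak in the ELF6 window. The region kept was thus the far-end one, which reaches past the gene end into AT5G04250. When each list was reduced to the same number of its best peaks, 3 genes had a BRM-GFP peak in both lists, of which JMJ13 was kept, REF6 was kept in 1 list and ELF6 was lost.

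Genes without a peak in brd1/2/13 spanned a range of BRM-GFP levels. REF6 had a peak of 1.90-fold in replicate 1 of BRM-GFP in brd1/2/13 with its summit at +50 bp, against 4.72 and 4.39 in BRM-GFP with summits at +29 and +44 bp. ELF6, whose BRM-GFP fold at its start was close to that of REF6 (4.45 and 3.83), had no peak in brd1/2/13. CLF had a BRM-GFP fold of 3.91 and 3.32, with summits at +394 and +397 bp in its 5′ UTR. EMF2 had 3.82 and 3.22, also in its 5′ UTR, at +230 and +199 bp. LHP1 had 2.82 and 2.19, and MSI1, the lowest of the 8, had 2.09 and 1.94. The summits of MSI1 lay at -239 bp, inside TTL, in replicate 1 and at +209 bp, in its own coding exon, in replicate 2. The lowest folds called at background, 1.54 and 1.55 in brd1/2/13 and 1.82 and 1.58 in BRM-GFP, are not far below those of MSI1. The part of library depth in these losses was not tested.

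**Figure D2:**
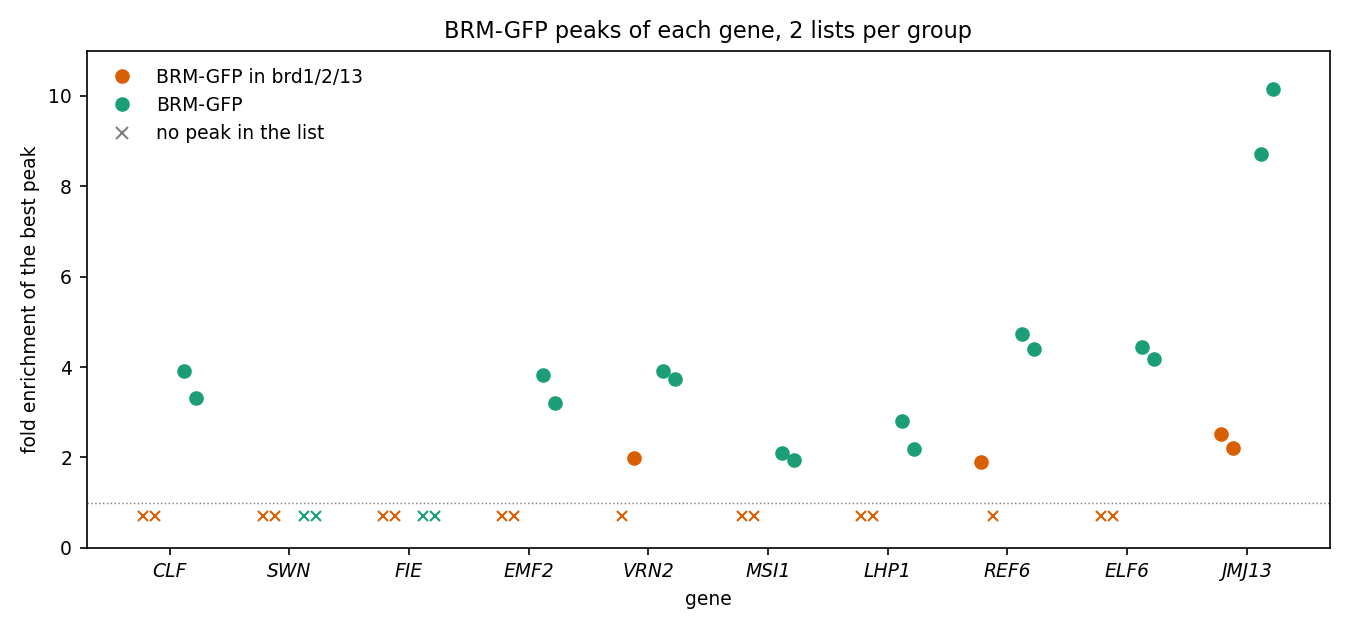
Fold enrichment of the best BRM-GFP peak of each gene (vertical axis, linear) for BRM-GFP in brd1/2/13 (2 lists, orange, left) and BRM-GFP (2 lists, green, right); crosses drawn under 1 mark lists with no peak. JMJ13 has 2.53 and 2.21 in BRM-GFP in brd1/2/13 and 8.72 and 10.2 in BRM-GFP, and 5 genes have crosses in both mutant lists with peaks in both BRM-GFP lists.

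JMJ13, the demethylase gene with the highest BRM-GFP level of the set, was the only one of the 10 with a peak in all 20 lists. Its BRM-GFP fold was 2.53 and 2.21 in brd1/2/13, against 8.72 and 10.2 in BRM-GFP. All genes with a peak had a median best fold of 2.21 and 2.30 for BRM-GFP in brd1/2/13, against 4.0 and 3.78 for BRM-GFP. By rank JMJ13 stood at 71.4 and 43.2% in BRM-GFP in brd1/2/13, against 92.5 and 96.0% in BRM-GFP. The groups did not overlap in fold or in rank, but the share of all genes for which this holds was not counted. Neither difference was tested, since the lists differ in depth and q limit. The peaks covered 1193 and 2021 bp of its window in brd1/2/13, against 3100 and 2867 bp in BRM-GFP. The best BRM-GFP peak was 2765 and 2583 bp wide, wider than 94.0 and 91.0% of the peaks of its list.

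JMJ13 had summits at 2 places, in the 5′ UTR and in the upstream site printed above. In brd1/2/13, BRM-GFP had separate summits at both places in replicate 1, at -648 bp with a fold of 2.13 and at +297 bp with a fold of 2.53, and the single wide peak of replicate 2 had its summit at -656 bp. The best BRM-GFP summits lay in the 5′ UTR, at +225 and +320 bp, as did those of BRD1-GFP (+239 and +245 bp) and of BRD2-GFP replicate 1 (+208 bp). The best summits of BRD13-GFP (-713 and -685 bp), BRD2-dBromo-GFP (-735 and -632 bp) and BRD2-GFP replicate 2 (-726 bp) lay in the upstream site. These BRM-GFP and BRD peaks each spanned both places, so a summit tells only which of the 2 was higher. A further peak lay in the 3′ UTR, with summits from +4747 to +4884 bp and folds of 1.65 to 3.14, in all 10 lists of BRM-GFP, BRD1-GFP, BRD13-GFP, BRD2-dBromo-GFP and BRD2-GFP and in neither list of BRM-GFP in brd1/2/13. No acetylation peak covered the upstream site or the 3′ UTR. The acetylation peaks of JMJ13 began at +97 to +167 bp and had summits from +351 to +563 bp.

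**Figure D3:**
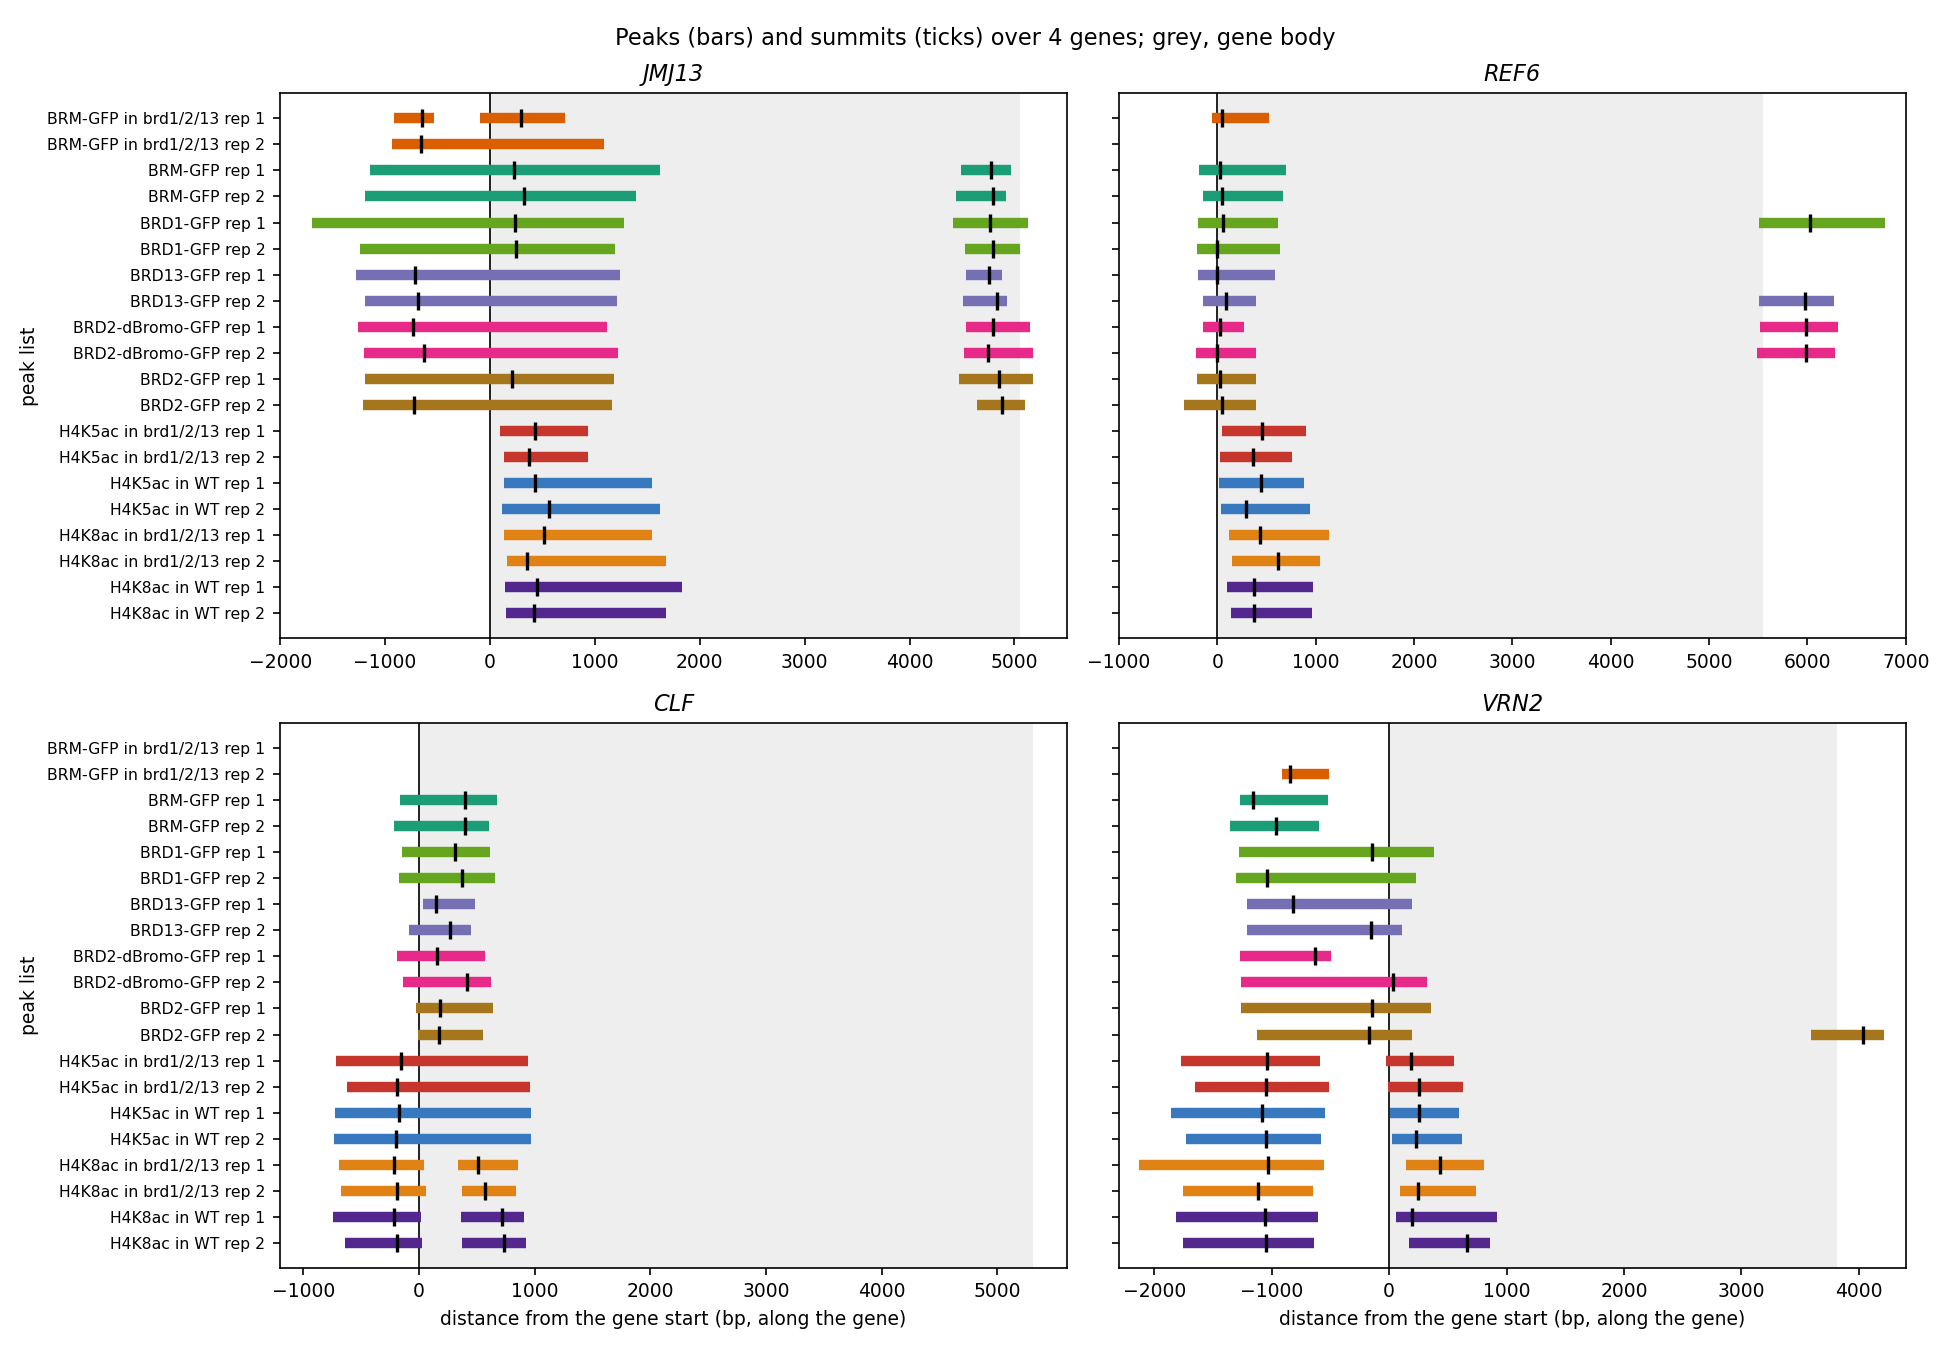
Peaks (bars) and their summits (black ticks) over JMJ13, REF6, CLF and VRN2 in each of the 20 lists (rows), against the distance from the gene start along the gene in bp; the gene body is grey. JMJ13 has GFP summits in its upstream site or 5′ UTR and a further peak near its end, REF6 has GFP summits at its start and, in 4 lists, past its end, with acetylation summits from +290 to +615 bp, CLF has acetylation summits before its start, and VRN2 has its best acetylation peaks over the upstream neighbour.

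The other demethylase genes had narrower peaks at their starts. REF6 had start summits from -6 to +87 bp in every GFP list with a peak, with folds of 4.40 and 3.94 for BRD1-GFP, 2.72 and 2.83 for BRD13-GFP, 2.91 and 3.0 for BRD2-dBromo-GFP, and 3.33 and 4.53 for BRD2-GFP. In BRD1-GFP replicate 1, BRD13-GFP replicate 2 and both lists of BRD2-dBromo-GFP the best peak of REF6 was another one, at its far end, with folds of 4.44 to 5.86. Those summits lay 183 to 241 bp inside the next gene, AT3G48440. ELF6 had start summits from +68 to +188 bp, with folds of 3.97 and 3.52 for BRD1-GFP, 2.72 and 2.55 for BRD13-GFP, 2.42 and 1.96 for BRD2-dBromo-GFP, and 3.13 and 2.34 for BRD2-GFP. These summits also lie within AT5G04238, so the 2 genes cannot be told apart there. Its far-end peak, with summits near the start of AT5G04250 in most lists that had it, reached 4.71-fold in BRD1-GFP replicate 1.

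The PRC2 genes differed among themselves in GFP signal. For CLF the folds were 2.60 and 2.51 in BRD1-GFP, 2.24 and 1.92 in BRD13-GFP, 2.63 and 2.53 in BRD2-dBromo-GFP, and 2.64 and 2.82 in BRD2-GFP, with every summit in its 5′ UTR. EMF2 had 3.36 and 3.17 in BRD1-GFP, 3.71 and 3.61 in BRD13-GFP, 2.83 and 2.44 in BRD2-dBromo-GFP, and 4.43 and 3.41 in BRD2-GFP, with summits from +99 to +160 bp. For VRN2 the 1 summit in brd1/2/13 (-844 bp, fold of 1.98 in replicate 2) and the BRM-GFP summits (-1155 and -964 bp, folds of 3.91 and 3.73) all lay inside AT4G16840. With peaks assigned only where the summit is in the window, VRN2 was no longer among the genes with BRM-GFP in both lists. Its best BRD peaks reached past its own start in 7 of 8 lists, with folds of 1.92 to 2.99.

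FIE, SWN, MSI1 and LHP1 were the genes without a peak in at least 1 of the GFP groups other than BRM-GFP in brd1/2/13. FIE had no BRM-GFP peak, but BRD2-dBromo-GFP reached 2.23 and 2.07 and BRD2-GFP 2.67 and 2.18 at its 5′ UTR, while BRD1-GFP (2.12) and BRD13-GFP (2.32) had a peak in replicate 1 only. SWN had no BRM-GFP or BRD13-GFP peak, and in the other BRD lists its best peak, with folds of 2.18 to 3.27, had its summit 1 to 117 bp inside the next gene, AT4G02030. At its own start SWN had a peak in 3 single lists, with folds of 2.1 in BRD1-GFP replicate 1, 1.70 in BRD2-dBromo-GFP replicate 2 and 1.66 in BRD2-GFP replicate 1. MSI1 had 1.44 in BRD1-GFP replicate 1, 1.87 and 1.73 in BRD2-dBromo-GFP, and no peak in BRD13-GFP or BRD2-GFP. These MSI1 summits, at -95, -126 and -134 bp, all lay inside TTL. LHP1 had 2.02 and 2.31 in BRD1-GFP, 1.58 in BRD2-dBromo-GFP replicate 2, 2.09 and 2.06 in BRD2-GFP, and none in BRD13-GFP. A peak called in 1 list of a pair was not tested as a difference between the proteins.

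GA repeats were found at most of the BRM-GFP summits of the set. GAGAGA, searched on both strands in 300 bp centred on the summits, far-end peaks aside, was present at 7 of 8 genes in BRM-GFP replicate 1 and at 6 of 8 in replicate 2. It was present at 47.3 and 47.8% of all summits of these lists. LHP1 had none in either list, and MSI1 had one in replicate 1 only. In the 250 bp before the start it was found at CLF, MSI1 and REF6, against 20.6% of all genes. AAACCCTA, the telobox, was present at 3 and 4 of the 8 genes (8.60 and 9.29% of all BRM-GFP summits), and CACGTG, the G-box, at none (11.8 and 11.7%). The G-box in the JMJ13 upstream site was within 150 bp of a summit in both lists of BRM-GFP in brd1/2/13 (13.1 and 13.7% of all summits) and of BRD13-GFP (15.3 and 15.7%). The motif CTCTGCTC, CTCTGCTT, CTCTGTTC or CTCTGTTT, to which the zinc fingers of REF6 are known to bind, was present at REF6 itself in both BRM-GFP lists, at MSI1 in replicate 1 and at JMJ13 in replicate 2 (14.1 and 13.8% of all summits). Matches of different motifs may share bases, as TCTCTC and CTCTG can. These are matches of letters, with no measurement of binding to them. The 30 bases with most GAGAGA near a BRM-GFP summit are printed for 5 genes, 5′ to 3′ along the gene, with the matches in capitals. They lie at chr2:9955474-9955503 (CLF, 5′ UTR), chr5:20823742-20823771 (EMF2, 5′ UTR), chr4:9475049-9475078 (VRN2, in a coding exon of AT4G16840), chr5:1169217-1169246 (ELF6, 5′ UTR and coding exon of AT5G04238) and chr5:19046505-19046534 (JMJ13, 5′ UTR), all on the + strand.
CLF: cgccaaattcctTCTCTCctccaacatttc
EMF2: cttcaTCTCTCTCttTCTCTCTCTCaagct
VRN2: caagcggggaaGAGAGAGAaatcaagattc
ELF6: ttacacaacttTCTCTCTCtttgcttctcc
JMJ13: tctctacagttTCTCTCTCctctaccgccg

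Acetylation followed a different order of genes. CLF, the gene with the highest H4K5ac fold in WT, had 8.74 and 9.06 in brd1/2/13, against 9.06 and 7.70 in WT, and the groups overlapped. Its summits lay 156 to 197 bp before its start, which is 213 to 254 bp inside AT2G23370, under 1 peak that ran over both starts. VRN2 had 8.40 and 8.63 in brd1/2/13, against 6.63 and 7.28 in WT, again with the best summits in the neighbour, 98 to 148 bp inside AT4G16840. At a second peak inside VRN2 itself, with summits from +187 to +254 bp, the H4K5ac fold was 4.49 and 5.0 in brd1/2/13, against 4.41 and 4.23 in WT. The best summits of MSI1, with 6.21 and 6.77 in brd1/2/13 and 6.55 and 6.67 in WT, lay in TTL. REF6 had the lowest H4K5ac of the set, with 4.01 and 3.84 in brd1/2/13, against 3.41 and 3.13 in WT. JMJ13, which led in BRM-GFP, was next to lowest, with 4.52 and 4.62 in brd1/2/13, against 3.93 and 3.53 in WT. The H4K5ac summit in WT lay downstream of the BRM-GFP summit at 5 of the 7 genes that had both in their window, by 67 bp at LHP1 to 329 bp at REF6. It lay upstream at CLF and MSI1, whose acetylation summits are in the neighbour. These positions are means of the 2 lists. The BRM-GFP mean of MSI1, -15 bp, lies between summits at -239 and +209 bp, and its H4K5ac summits in WT were at -268 and -296 bp. Over all genes with both, 76.6% had the H4K5ac summit downstream.

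The third question was whether H4K5ac and H4K8ac at these genes changed in brd1/2/13. No gene of the set was called for either mark by limma on the log2 of the best fold, centred on the median of each list, with Benjamini-Hochberg adjustment at 0.05 over all genes with a peak in all 4 lists. Over all genes, 0.275% were called higher and 0.243% lower for H4K5ac, and 0.0116% higher and 0.0697% lower for H4K8ac. The H4K5ac differences of the 10 genes ran from -0.10 (MSI1) to 0.23 (JMJ13) on the log2 scale, with a median of 0.14. Those for H4K8ac ran from -0.31 (FIE) to 0.35 (VRN2), with a median of 0.09. An unadjusted p under 0.05 was found for 1 gene with H4K5ac (VRN2) and for 2 with H4K8ac (FIE and VRN2), against 13.9 and 11.4% of all genes, and the smallest limma adjusted p, 0.305 and 0.261, were those of VRN2. VRN2 differed by 0.22 ± 0.09 (SE) for H4K5ac and by 0.35 ± 0.12 for H4K8ac, where its fold was 4.66 and 4.77 in brd1/2/13, against 3.59 and 3.74 in WT. Both of its mutant lists were above both WT lists for each mark, at summits inside AT4G16840. At the H4K8ac peak inside VRN2 itself the groups overlapped, with 2.28 and 2.59 in brd1/2/13, against 2.63 and 2.03 in WT. EMF2 had 6.88 and 7.40 for H4K5ac in brd1/2/13, against 5.78 and 6.25 in WT, a difference of 0.18 ± 0.10. Both H4K5ac values in brd1/2/13 were above both in WT also at FIE, REF6, ELF6 and JMJ13. With VRN2 and EMF2 this held for 6 of the 10 genes, against 35% of all genes tested, and the reverse held for none of the 10, against 12.9%. The H4K5ac peak of JMJ13, though higher in fold, covered less of its window, with 834 and 804 bp in brd1/2/13, against 1417 and 1507 bp in WT. Covered length was not tested and not compared over all genes. For H4K8ac both values in brd1/2/13 were above both in WT at 5 genes (SWN, VRN2, MSI1, REF6 and ELF6, all genes 22.6%) and below both at FIE (all genes 19%). These counts for both marks used folds before centring. There the median difference over all genes, brd1/2/13 minus WT, was 0.07 (log2) for H4K5ac and 0.009 for H4K8ac. FIE differed in opposite directions for the 2 marks, neither of them called, with 6.88 and 6.27 for H4K5ac in brd1/2/13, against 5.48 and 5.53 in WT, and 2.71 and 3.0 for H4K8ac in brd1/2/13, against 3.45 and 3.53 in WT.

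**Figure D4:**
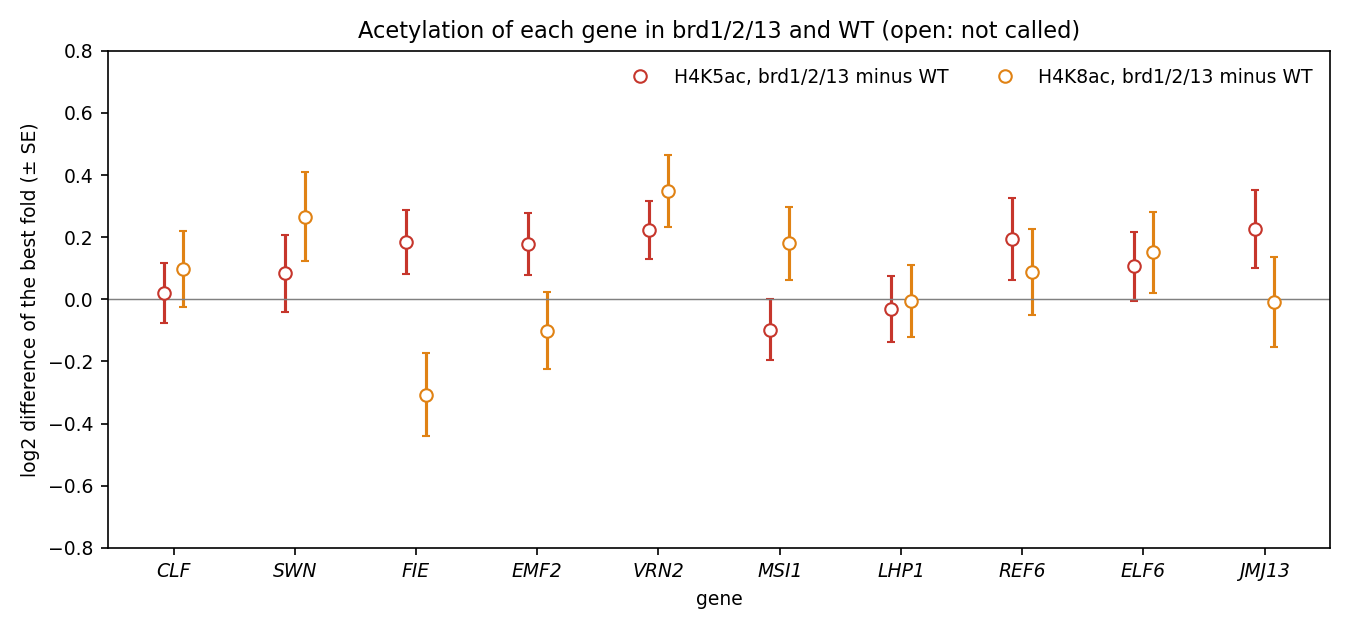
Difference of the log2 best fold of each gene, brd1/2/13 minus WT, for H4K5ac (red) and H4K8ac (orange), with limma standard errors from 2 lists per group; open symbols were not called. All 20 values lie between -0.31 and 0.35, and FIE is the gene with the widest gap between the marks.

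The fourth question was how the BRD proteins compared with BRD2-GFP, by the same limma fit. The 3 comparisons share the 2 BRD2-GFP lists, and only genes with a peak in all 4 lists entered, so MSI1 entered none of them. For BRD13-GFP, 6 genes were tested, and CLF, VRN2 and ELF6 were called lower, while none was called higher. An unadjusted p under 0.05 was found for 4 of the 6, against 48.2% of all genes. After adjustment, over all genes, 13.5% were called lower and 24.4% higher. CLF had 2.24 and 1.92 in BRD13-GFP, against 2.64 and 2.82 in BRD2-GFP, a log2 difference of -0.65 ± 0.14 with an adjusted p of 0.0083. VRN2 had 2.24 and 1.92 in BRD13-GFP, against 2.37 and 2.34 in BRD2-GFP, with -0.43 ± 0.13 and an adjusted p of 0.035 by limma. ELF6 had best folds of 2.72 and 2.55 in BRD13-GFP, against 3.13 and 3.61 in BRD2-GFP, with -0.61 ± 0.13 and an adjusted p of 0.0102. For BRD2-GFP replicate 2 that peak of ELF6 was the far-end one, and with summits in the window its difference was -0.21 with an adjusted p of 0.30 by limma. The median over all genes was 0.29 higher in BRD13-GFP before centring, so these values are relative to the other genes. With quantile normalization, which also evens out the spread, none of the 3 calls held (adjusted p of 0.111 for CLF, 0.45 for VRN2 and 0.097 for ELF6 by limma). Without BRD2-GFP replicate 2 none of the 3 calls held either (0.054, 0.117 and 0.068 for CLF, VRN2 and ELF6), and that of VRN2 was also lost without BRD2-GFP replicate 1 (0.113) and without BRD13-GFP replicate 2 (0.178). Without centring VRN2 (0.305) and ELF6 (0.060) were not called, nor was VRN2 with summits in the window (0.064). The BRD13-GFP replicate 2 folds of CLF and VRN2, 1.92, stood at a rank of 3.70%. With a q of at most 1e-05 neither gene had a BRD13-GFP peak in both lists, so neither could be tested. The BRD13-GFP replicate 1 summit of VRN2, at -820 bp, lay inside AT4G16840. REF6, with -0.41 ± 0.24, was not called, but its start peaks alone gave -0.65 with an adjusted p of 0.0019. REF6 was also called without BRD13-GFP replicate 2 (-0.76, adjusted p of 0.0040 by limma), and EMF2 without BRD2-GFP replicate 2 (-0.52, 0.042). JMJ13 had 7.61 and 6.91 in BRD13-GFP, against 5.04 and 5.52 in BRD2-GFP, a difference of 0.21 ± 0.10 that was not called and that was -0.05 with quantile normalization.

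For BRD2-dBromo-GFP, 8 genes were tested by limma and none was called, with 3 at an unadjusted p under 0.05 (28.4% of all genes), where 3.63% of all genes were called higher and 5.55% lower. SWN (0.53 ± 0.14, adjusted p of 0.052) and REF6 (0.58 ± 0.16, adjusted p of 0.058) came closest by limma. Their highest folds in BRD2-dBromo-GFP were those of the far-end peaks in the next gene. For REF6 the difference was -0.26 where the summit had to lie in the window, and its start peak had 2.91 and 3.0 in BRD2-dBromo-GFP, against 3.33 and 4.53 in BRD2-GFP. EMF2 had 2.83 and 2.44 in BRD2-dBromo-GFP, against 4.43 and 3.41 in BRD2-GFP, a difference of -0.39 ± 0.15 that did not pass (adjusted p of 0.133 by limma) and that was called with summits in the window (-0.43, adjusted p of 0.030) and without BRD2-GFP replicate 2 (-0.58, adjusted p of 0.023). Without BRD2-GFP replicate 2, REF6 (0.80, adjusted p of 0.00037 by limma) and SWN (0.60, 0.023) were called too, as they were without BRD2-dBromo-GFP replicate 2 (0.67 with 0.017, and 0.64 with 0.027). For BRD1-GFP, 8 genes were tested by limma and none was called, with 2 at an unadjusted p under 0.05 (22.5% of all genes), where 0.712% of all genes were called higher and 0.195% lower. EMF2 was again lowest, with 3.36 and 3.17 in BRD1-GFP, against 4.43 and 3.41 in BRD2-GFP (-0.50 ± 0.14, adjusted p of 0.120 by limma), and it was called with summits in the window (-0.47, adjusted p of 0.024).

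**Figure D5:**
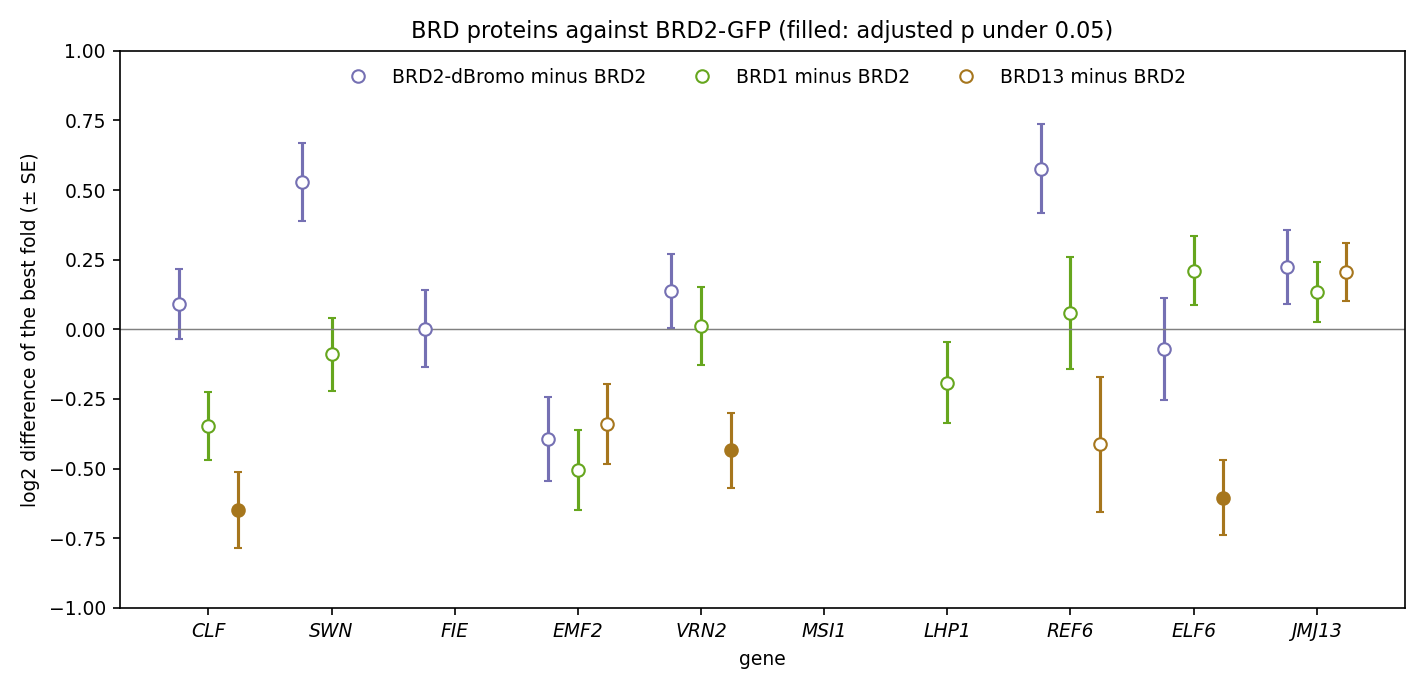
Difference of the log2 best fold of each gene for BRD2-dBromo-GFP (purple), BRD1-GFP (green) and BRD13-GFP (brown), each minus BRD2-GFP, with limma standard errors from 2 lists per group; genes without a peak in all 4 lists are absent. Filled symbols, CLF, VRN2 and ELF6 for BRD13-GFP, have an adjusted p under 0.05, and all others are open.

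The other genes of the Polycomb pathway were taken as a list of 34: further PRC2 subunits, PRC1 and other readers, partners of the VEL and VAL families, telobox factors, antagonists, and other H3K27 demethylases and methyltransferases. Of these 34, 22 had a BRM-GFP peak in both lists, against 54.6% of all genes. Of the 22, 7 kept one in both lists of brd1/2/13, 2 in 1 list and 13 in none. Over all genes with a BRM-GFP peak in both lists, these shares were 37, 15.8 and 47.2%. BRM-GFP was highest at VAL2, a B3-domain repressor that recruits PRC2, with 19.3 ± 0.6 (SD, n = 2), and VAL2 had no peak in either list of BRM-GFP in brd1/2/13. Where the BRM-GFP summits of the listed genes lie was not examined, so a peak in a window may belong to a neighbour. For VAL2 the BRD differences given below changed sign where the summit had to lie in the window. VEL1, a PHD-finger partner of PRC2, had 11.4 ± 0.9 and EMF1, which acts with PRC1 and PRC2, had 10.6 ± 0.02, and both kept a peak in both mutant lists. BMI1C, FIS2 and VEL2 had no peak in any of the 20 lists. By limma, none of 26 tested genes was called for H4K5ac, none of 24 for H4K8ac and none of 22 for BRD1-GFP, with 9, 1 and 9 at an unadjusted p under 0.05, where all genes had 13.9, 11.4 and 22.5%. For BRD2-dBromo-GFP against BRD2-GFP, 7 of 21 genes had an unadjusted p under 0.05 by limma, against 28.4% of all genes. After adjustment, 3.63% of all genes were called higher and 5.55% lower. Of the 21 genes, 3 were called higher, namely RING1A, a PRC1 E3 ligase (0.67 ± 0.12), JMJ30, a jumonji demethylase (0.56 ± 0.13), and EMF1 (0.33 ± 0.08). The 3 called lower were VEL1 (-0.52 ± 0.10), VAL2 (-0.46 ± 0.10) and SHL, a reader of histone H3 methylation (-0.40 ± 0.09). The limma adjusted p of these 6 ran from 0.018 to 0.044. With summits in the window SHL was called higher, not lower (0.34, limma adjusted p of 0.041), and VAL2 was higher but not called (0.13). Without BRD2-GFP replicate 1 none of the 6 was called (limma adjusted p of 0.0502 to 0.183). With quantile normalization VEL1 (0.055), VAL2 (0.099) and SHL (0.176) were not called, and without centring JMJ30 (0.072) and EMF1 (0.253) were not. For BRD13-GFP against BRD2-GFP, 9 of 21 had an unadjusted p under 0.05 by limma, against 48.2% of all genes. After adjustment, 4 were called higher and 2 lower, where 24.4% of all genes were called higher and 13.5% lower. The higher ones were SHL (0.92 ± 0.06), EMF1 (0.73 ± 0.07), ULT1, an antagonist of Polycomb (0.70 ± 0.08), and VAL2 (0.63 ± 0.09). The lower ones were VAL1, the relative of VAL2 (-0.67 ± 0.14), and ATXR5, an H3K27 monomethyltransferase (-0.62 ± 0.14), with limma adjusted p from 6.6e-05 to 0.0095. With quantile normalization only SHL was still called. With summits in the window VAL2 was called lower, not higher (-0.46, limma adjusted p of 0.0147). ATXR5 was not called without BRD2-GFP replicate 2 (limma adjusted p of 0.064) or without centring (0.056).

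Across the 20 ranks, with 0 where a list had no peak, the closest pair of the set was MSI1 and LHP1 (Euclidean distance of 39.0), followed by CLF and VRN2 (53.8). JMJ13 was the farthest from any other member, 133 from REF6. The 3 genes closest to the median profile of the 10 were AT4G15180 (SDG2, a histone H3K4 methyltransferase, 34.4), AT3G27320 (35.9) and AT1G62390 (36.5).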

How the data were processed

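The authors deposited 1 peak list per immunoprecipitated sample. Bowtie, MACS2 2.1.1 and deepTools, with TAIR10, are listed in the submitters' processing notes. The version of Bowtie, the filtering of reads and any role of the inputs are not given in the sources used here. Deposited columns hold a score, which is 10 times the −log10 q, the fold enrichment at the summit, −log10 p and −log10 q, all as the authors' peak caller gave them. These are the authors' own values per peak, and not counts.

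From these, a gene had a peak where one overlapped its window by 1 bp, and a group where both lists did. Folds of best peaks were compared with limma 3.58.1 (R 4.3.3) on log2 values with no pseudocount, centred on the list median, with a variance trend, over genes with a peak in all 4 lists. Fold is set by enrichment and background, so libraries of different quality differ in scale. Pileup and background were solved under a Poisson model for peaks with −log10 p under 100, and 99.9 to 100% came out whole within 0.02. The 9 chloroplast peaks in 2 lists were left out. The scripts were tested on simulated data. Genes, lists and motifs were chosen with earlier results of these data known. The named pathway genes are up to 6 called per comparison with the lowest adjusted p, the 3 with the highest BRM-GFP rank and those with no peak. Alternatives were the window, the summit rule, q limits, equal peak numbers, merged regions, centring, variance trend, the replicate number as a block and leaving out each list. Python 3.11.15 was used.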

Additional observations from a re-analysis of the deposited data

Results flagged for a closer look

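At FIE, both H4K5ac lists of brd1/2/13 were above both WT lists and both H4K8ac lists of brd1/2/13 were below both WT lists. The change in H4K5ac minus the change in H4K8ac was 0.49 ± 0.16 (SE) on the log2 scale, by a limma fit over the 8 acetylation lists that was added after the data were seen. Its unadjusted p was 0.0072 and its adjusted p over 16876 genes was 0.24 by limma, so it was not called. FIE was picked for its opposite pattern in these same 8 lists, so this p cannot serve as a separate test of it. How many of all genes show that pattern was not counted. In this fit 9 genes were called higher and 12 lower, and 1942 of the 16876 genes had an unadjusted p under 0.05.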

How the results depend on the processing

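The number of genes with a peak in both libraries of BRM-GFP in brd1/2/13 was 2 when either library was left out, and 1 to 2 genes kept the BRM-GFP peak when each of the 4 libraries was left out (VRN2 or REF6 besides JMJ13). With equal numbers of peaks, 1 gene lost it. Counts of called genes over the whole genome depended on the settings. For H4K5ac they were 98 as reported, 189 without centring, 164 with quantile normalization, 327 with summits in the window, 47 without the variance trend and 164 within 500 bp of the start. For H4K8ac the count was 14 as reported, 54 with summits in the window, 9 with a q of at most 1e-05, 37 within 500 bp of the start, and 43 (without H4K8ac in WT replicate 1) to 190 (without H4K8ac in brd1/2/13 replicate 1) with 1 library left out. For BRD2-dBromo-GFP it was 1441 as reported, 3302 without centring (270 higher and 3032 lower), 903 with quantile normalization, and 343 (without BRD2-GFP replicate 1) to 1876 with 1 library left out. For BRD1-GFP it was 149 as reported, 3530 without centring (3458 higher and 72 lower), 1418 with summits in the window, 294 with a q of at most 1e-05, 68 without the trend, 320 within 500 bp of the start, and 195 to 1371 with 1 library left out (highest without BRD1-GFP replicate 2). For BRD13-GFP it was 5538 as reported, 892 with quantile normalization (455 higher and 437 lower), 3671 (without BRD2-GFP replicate 2) to 5167 with 1 library left out, and 6421 higher and 470 lower without centring. The causes of these changes were not tested. Without centring, the median over all genes was -0.17 (log2) for BRD2-dBromo-GFP, 0.24 for BRD1-GFP and 0.29 for BRD13-GFP.

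With the replicate number as a block (replicate block), 318 genes were called for H4K5ac, 12 for H4K8ac, 1341 for BRD2-dBromo-GFP, 48 for BRD1-GFP and 5297 for BRD13-GFP. Same-numbered libraries did not deviate together (correlations of -0.015 to 0.036), so the numbers were not taken as pairs. Under the block REF6 was called for BRD13-GFP (adjusted p of 0.048 by limma). For BRD2-dBromo-GFP EMF1 was not called under the block (0.060). Without the variance trend VAL2 (0.063), SHL (0.077) and EMF1 (0.107) were not called either. Without BRD2-dBromo-GFP replicate 1 JMJ30 (0.082), SHL (0.058) and EMF1 (0.126) were not called, nor were VAL2 (0.074) and EMF1 (0.054) without BRD2-GFP replicate 2.

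Most differences that changed sign were uncalled and small, but those of REF6 for BRD2-dBromo-GFP, of VAL2 and of SHL were larger. As reported, REF6 had 0.58 (not called) and SHL -0.40 for BRD2-dBromo-GFP. VAL2 had -0.46 for BRD2-dBromo-GFP and 0.63 for BRD13-GFP as reported, and VAL2 and SHL were called there. LHP1 was 0.0394 without centring for H4K5ac, and for H4K8ac 0.0124 without centring, 0.0128 with quantile normalization, 0.0009 with summits in the window and 0.0035 within 500 bp of the start. JMJ13 was 0.0081 without centring for H4K8ac and -0.0488 with quantile normalization for BRD13-GFP. For BRD2-dBromo-GFP, CLF was -0.0803 and VRN2 -0.0350 without centring, FIE was -0.1692 without centring, -0.1137 with quantile normalization and -0.0355 with summits in the window, and REF6 was -0.2606 with summits in the window and -0.2075 within 500 bp of the start. For BRD1-GFP, REF6 was -0.1128 and -0.1374 under these last settings, SWN was 0.1604 without centring and 0.0129 with quantile normalization, LHP1 was 0.0581 without centring, and VRN2 was -0.0036 with a q of at most 1e-05. VAL2 and SHL reversed with summits in the window (VAL2 -0.4611 for BRD13-GFP and 0.1253 for BRD2-dBromo-GFP, SHL 0.3428) and within 500 bp of the start (VAL2 -0.5031 and 0.1783, SHL 0.3959). Of these, VAL2 for BRD13-GFP was called under both settings (limma adjusted p of 0.0147 and 0.0165), and SHL was called with summits in the window (0.041). With 1 library left out, the H4K5ac differences spanned -0.0937 to 0.1393 for CLF, -0.0394 to 0.2085 for SWN and -0.1435 to 0.0862 for LHP1, and those for H4K8ac spanned -0.0675 to 0.2778 for CLF, -0.0272 to 0.0298 for LHP1 and -0.2294 to 0.2235 for JMJ13. Those for BRD2-dBromo-GFP spanned -0.1445 to 0.1309 for FIE and -0.3396 to 0.1864 for ELF6, and those for BRD1-GFP -0.173 to 0.2864 for REF6 and -0.1315 to 0.1512 for VRN2. Depth limits peaks with folds close to the lowest called at background, such as the 1.44 of MSI1 and the 1.58 of LHP1.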
